A study of Sus scrofa with 32 samples.

Results

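The genes described here are 6 genes of lymphocyte egress and lymph node homing, KLF2, S1PR1, S1PR5, CCR7, LEF1 and TCF7, among 25880 genes in the count matrices. They were taken by symbol, and each was followed in T cells and in B cells of the pig ileum and of the blood. The question behind the comparison was how lymphocytes lodged in the gut wall differ from circulating ones in the transcripts that direct lymphocytes out of tissue and into lymph nodes.

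The animals were 2 mixed-breed pigs, both 7 weeks old, of which pig 1 is labelled female and pig 2 male. From each pig the ileum was cut into a piece holding only Peyer's patch tissue (PP), a piece free of it (non-PP) and a complete transverse section (whole ileum), and peripheral blood mononuclear cells (PBMC) were taken from the same animals. Epithelium, lamina propria and submucosa were dissociated together and enriched for live lymphocytes, so that the shares of cell types are those after the enrichment. Blood cells were isolated in cell preparation tubes and did not go through the incubations and enzyme digestion of the ileum. Tissue and handling can therefore not be told apart in any difference between ileum and blood. Transcripts were counted with unique molecular identifiers (UMIs) by droplet-based single-cell RNA sequencing (10x 3' v2 chemistry), which gave 8 libraries of 1 pig each.

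KLF2 is a zinc finger transcription factor of quiescent lymphocytes that induces the gene for the sphingosine 1-phosphate (S1P) receptor S1PR1. S1P is abundant in blood and lymph and scarce inside tissues, and lymphocytes that carry S1PR1, or S1PR5 in the case of NK cells and cytotoxic T cells, follow this gradient out of the tissue, while CD69 on activated and resident cells removes S1PR1 from the surface. CCR7 is the chemokine receptor that brings naive lymphocytes and dendritic cells into the T cell zones of lymph nodes and Peyer's patches, and LEF1 and TCF7 encode related HMG box factors that are high in naive and memory T cells and fall as effector cells differentiate.

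In assembly Sscrofa11.1, KLF2 (ENSSSCG00000038911) lies on chr2:61270733-61273037, S1PR5 (ENSSSCG00000028460) on chr2:69293537-69299408 and TCF7 (ENSSSCG00000030680) on chr2:136422740-136456323. S1PR1 (ENSSSCG00000029849) lies on chr4:117064632-117069724, CCR7 (ENSSSCG00000017466) on chr12:21857286-21869211 and LEF1 (ENSSSCG00000009148) on chr8:113824511-113944078. A UMI of this assay comes from the 3' end of any transcript of the annotated gene, and isoforms were not told apart.

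After a filter on cells (at least 1250 UMIs, at least 550 genes and at most 12.5% mitochondrial UMIs), 48629 cells remained, 3776 to 7704 per library, from libraries of 21134542 to 40111934 UMIs. A T cell was a cell with a UMI of CD3E and none of CD79B, and a B cell the reverse. This gave 13434 T and 14661 B cells in ileum and 5967 T and 2875 B cells in blood, while 3183 cells with UMIs of both markers were set aside. CD3G was found in 84.6% to 92.6% of the T cells of each library, and MS4A1 in 0.116% to 4.47% of them. MS4A1 was found in 64.3% to 83.6% of the B cells, but transcripts of T cell markers were not absent there: CD247 was found in 28.6% to 66.4% of ileal and 7.25% and 9.50% of blood B cells, LCK in 17.9% to 32.3% of ileal ones, and CD3G in 32.3% of the B cells of non-PP pig 2 and 6.996% to 11.3% elsewhere. Non-PP tissue gave only 28 and 65 B cells. Any 2 libraries shared 21 to 80 cell barcodes, at most 1.23% of the smaller library.

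The library labelled whole ileum pig 1 went against its label. Per 1000000 UMIs it held 206.6 UMIs of Y-linked genes, against 0.161 in PP, 0.224 in non-PP and 0 in PBMC of the same female pig and 119 to 226 in the libraries of the male pig. Its group, whole ileum, is not in doubt from this measure, only its animal. Values per pig in ileum include it under its label, and the calls of members that were lost without it are named. Without it, the T cells of ileum pig 1 held 22.3 CPM of KLF2, 27.9 of S1PR1, 0.464 of S1PR5, 30.8 of CCR7, 15.3 of LEF1 and 143 of TCF7, and the fold changes of T and B cells between ileum and blood kept their calls.

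In T cells, 5 of the 6 genes were lower in ileum than in blood and TCF7 was not. For each pig, tissue and lineage the UMIs were summed over cells and tested with edgeR across all genes. Of 11698 genes tested, 10.3% were called lower and 14.4% higher in ileal T cells at an adjusted p below 0.05. With 2 pigs, an exact permutation test of 1 gene alone cannot fall below p = 0.333, so that the calls rest on the spread shared across genes. In such sums, fewer expressing cells and fewer transcripts per cell cannot be told apart.

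KLF2 separated the tissues in every library. As counts per 1000000 UMIs of the summed cells (CPM), its level in T cells was 46.8 and 41.9 in PP, 8.001 and 10.5 in non-PP and 39.9 and 38.0 in whole ileum, for pigs 1 and 2 in that order, against 422 and 455 in PBMC. All 6 ileal libraries lay far below both blood libraries. The mean of the pigs was 26.7 ± 1.00 CPM (SD, n = 2) in ileum and 439 ± 23.6 in blood, a ratio of 16.4 (log2 fold change -4.08 ± 0.34 SE, adjusted p = 0.000646). Markers of other cells moved with the contrast: the 4 platelet and red cell genes summed to 11698 and 2386 CPM in blood and 7.995 to 255 CPM in ileal T cells, and to 12908 and 1396 CPM in blood and at most 26.97 CPM in ileal B cells. The 7 epithelial genes summed to 2.09 and 2.37 CPM in blood T cells, 3 or 4 of them at 0, and to 150 to 826 CPM in ileal ones. Their part in the differences between ileum and blood was not tested.

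S1PR1, the receptor that most lymphocytes use to leave tissue, reached 57.6 and 51.7 CPM in PP, 10.5 and 12.9 in non-PP and 47.7 and 42.5 in whole ileum. Blood T cells held 109 and 146 CPM, above all ileal libraries and 3.93 times the ileal mean of the pigs (log2 fold change -2.01 ± 0.30 SE, adjusted p = 0.00530).

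S1PR5 was close to undetected in ileal T cells. Only 1 to 5 UMIs were counted in each ileal library, 19 among 41706274 UMIs in all, whereas blood T cells held 1149 UMIs in pig 1 and 389 in pig 2. This amounts to 0.456 CPM against 60.0 CPM, a ratio of 132 with a 95% counting interval of 84.1 to 219, and the gene was called lower in edgeR (adjusted p = 0.000621). With so few ileal UMIs it can have passed the filter on low counts before the test only through blood. The direction of the call was therefore fixed in advance. The blood level differed between the animals, at 85.9 CPM in pig 1 and 31.7 CPM in pig 2. Summed markers of NK cells and innate lymphoid cells (10 genes) followed the same order in blood T cells, 13404 CPM in pig 1 and 7689 CPM in pig 2, and their part in the S1PR5 level was not tested.

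CCR7 and LEF1 differed less. CCR7 stood at 76.0 and 85.4 CPM in PP, 4.32 and 11.13 in non-PP and 61.6 and 69.1 in whole ileum, and at 80.4 and 160 in PBMC, so that the PP library of pig 2 overlapped with blood of pig 1. The fold change of -1.52 ± 0.37 (log2, SE) passed the threshold with an adjusted p of 0.0256. It no longer did without the non-PP library of pig 1 (-1.11, adjusted p = 0.0766), without that of pig 2 (-1.04, adjusted p = 0.143) or without PBMC of pig 2 (-0.96, adjusted p = 0.0589).

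LEF1 was measured at 32.3 and 38.2 CPM in PP, 5.43 and 9.81 in non-PP and 33.9 and 38.2 in whole ileum, all below the 60.2 and 100.4 CPM of PBMC. Its mean was 3.54 times higher in blood (log2 fold change -1.87 ± 0.34 SE, adjusted p = 0.00981).

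TCF7, the relative of LEF1, did not follow it. Ileal T cells held 113 to 213 CPM and blood T cells 96.5 and 167 CPM, and the log2 difference of 0.27 ± 0.23 SE had an adjusted p of 0.424. The blood value of pig 1 was below all ileal libraries and that of pig 2 within their range. Without PBMC of pig 2 the gene was called higher in ileum (0.71, adjusted p = 0.0159), and without PBMC of pig 1 its difference was -0.070.

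**Figure D1:**
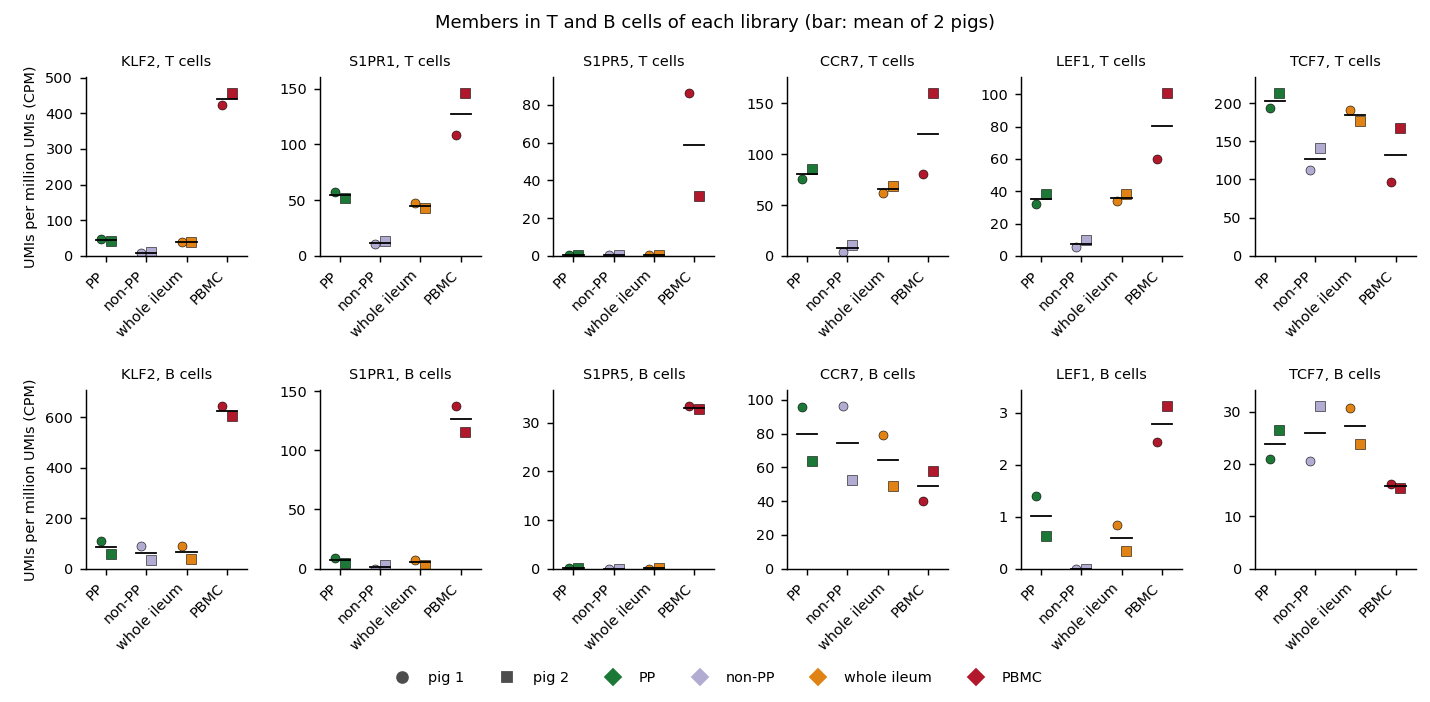
Level of each of the 6 genes in T cells (top row) and B cells (bottom row), in CPM on a linear axis from 0, for PP, non-PP, whole ileum and PBMC. Circles are pig 1, squares pig 2 and bars the mean of both. KLF2 of T cells stood at 422 and 455 CPM in PBMC and at 8.001 to 46.8 CPM in the ileal libraries, S1PR5 was near 0 in every ileal library, and TCF7 of T cells overlapped between ileum and blood.

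In B cells, KLF2, S1PR1 and S1PR5 were lower in ileum than in blood, and CCR7 and TCF7 did not pass the test. LEF1 was also called lower, but at levels that cannot be told apart from background. The same fit called 19.6% of 11698 genes lower and 18.7% higher in ileal B cells, so that a call in either direction was common there.

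KLF2 was measured at 110 and 58.8 CPM in PP, 89.4 and 34.2 in non-PP and 90.2 and 39.0 in whole ileum, against 645 and 605 CPM in PBMC. In each dissection the library labelled pig 1 was the higher one, and all 6 stayed below blood (log2 fold change -3.23 ± 0.32 SE, adjusted p = 0.000608, ratio 8.26). The animal of the library labelled whole ileum pig 1 is in doubt, and the non-PP levels rest on 28 and 65 B cells. The order of the libraries is therefore not read as a difference between the animals.

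S1PR1 was lower still in relation to blood. Ileal libraries held 0 to 9.03 CPM and PBMC 137 and 116 CPM, a ratio of 20.4 (log2 fold change -4.54 ± 0.34 SE, adjusted p = 0.000240). All 6 ileal levels were below those of S1PR1 in near-empty ileal barcodes, 10.1 to 35.7 CPM, so that the size of this ratio is not well determined. S1PR5 gave 0 to 2 UMIs per ileal library, 5 among 59107677 UMIs in all, against 220 and 221 UMIs in blood. The ratio of 392 had a counting interval of 167 to 1213, and the gene was called lower in edgeR (adjusted p = 0.000278). As in T cells, S1PR5 can have passed the filter on low counts only through blood, which fixed the direction of the call. The 33.4 and 32.9 CPM of blood B cells were below the 78.0 and 35.5 CPM of S1PR5 in near-empty blood barcodes of at most 50 UMIs. They were above the 2.45 and 1.27 CPM of blood cells with myeloid genes.

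CCR7 was not lower in ileal B cells. It reached 95.6 and 63.5 CPM in PP, 96.3 and 52.8 in non-PP and 79.5 and 48.8 in whole ileum, and 40.0 and 58.0 in PBMC, and its log2 difference was 0.39 ± 0.36 (SE, adjusted p = 0.425). TCF7 stood at 20.6 to 31.1 CPM in ileum and at 16.3 and 15.5 CPM in blood, without overlap and without passing the test (0.46 ± 0.24 SE, adjusted p = 0.177), which it did without PBMC of pig 1 (0.50, adjusted p = 0.0405). LEF1 was at most 1.39 CPM in ileal and 3.12 CPM in blood B cells. That is near the 2.04 and 1.59 CPM of blood cells with myeloid genes, a type not known for LEF1. LEF1 in B cells (adjusted p = 0.0238 in edgeR) can therefore not be told apart from background. Without PBMC of pig 2 it did not pass (adjusted p = 0.0872).

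The difference between ileum and blood was itself compared between the lineages in 1 interaction contrast, in which 17.8% of 11698 genes were called. It was called for S1PR1, whose deficit in ileum was smaller in T cells by 2.53 ± 0.43 on the log2 scale (adjusted p = 0.00981). The size of this contrast is not well determined, as S1PR1 of ileal B cells was below the level in near-empty barcodes in 6 of 6 libraries. The contrast was also called for CCR7, which was lower in T cells but not in B cells (-1.92 ± 0.52 SE, adjusted p = 0.0440). The KLF2 contrast of -0.85 ± 0.42 did not pass (adjusted p = 0.214), nor did those of S1PR5, LEF1 and TCF7. The CCR7 call stood near its threshold: without the library labelled whole ileum pig 1 it was -2.13 (adjusted p = 0.0501), without either non-PP library -1.51 and -1.44 (adjusted p = 0.105 and 0.175) and without PBMC of pig 2 -1.67 (adjusted p = 0.0511), and it was lost in 8 of 17 alternatives in all. The S1PR1 call was lost when cells with both markers were counted in both lineages (1.65, adjusted p = 0.0551) and without PBMC of pig 1 (2.21, adjusted p = 0.0548).

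T cells were then divided by marker UMIs into CD4 T cells, CD8B T cells and γδ T cells, which carry TRDC. The γδ T cells were split by CD2, as those with and without CD2 are distinct populations in pigs. Without CD2 here means no UMI of CD2, which can also be missed in a cell that expresses it. CD2 was found in 75.4% to 87.1% of ileal T cells per library and in 71.1% and 77.0% of blood T cells. γδ T cells without CD2 were 4.54% to 9.35% of ileal T cells beside 17.3% to 29.5% with CD2. In blood they were 9.48% and 12.5% beside 7.99% and 6.58%. The class may thus differ in kind between the tissues, which was not tested. T cells with none of the UMIs of CD4, CD8B and TRDC, or with UMIs of more than 1 of them, belonged to no class and made up 42.0% to 62.3% of the T cells per library. Each class was compared between ileum and blood in 1 fit of 8332 genes.

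KLF2 was lower in ileum in all 4 classes. It was 58.8 and 55.3 CPM in ileal CD4 T cells against 451 and 466 in blood, and 13.1 and 16.5 CPM in ileal CD8B T cells against 391 and 455. In γδ T cells with CD2 it was 13.1 and 12.9 CPM against 412 and 453, and in those without CD2 28.6 and 53.4 CPM against 530 and 579. Its log2 fold changes were -3.04 ± 0.24 in CD4, -4.86 ± 0.25 in CD8B, -5.01 ± 0.25 in CD2+ γδ and -3.74 ± 0.24 in CD2- γδ T cells (adjusted p of at most 1.39e-05). The ileal levels of CD8B and CD2+ γδ T cells were near the 15.3 and 12.6 CPM of ileal cells with epithelial genes, so that the size of their fold changes is not well determined.

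S1PR1 was called lower in CD8B and in both kinds of γδ T cells, and not in CD4 T cells. In CD4 T cells, ileum held 113 and 119 CPM and blood 177 and 213 CPM, a difference of -0.79 ± 0.31 that did not pass (adjusted p = 0.141). It was lower in CD8B T cells (21.3 and 19.8 against 114 and 89.2 CPM, -2.31 ± 0.32, adjusted p = 0.000667). CD2+ γδ T cells held 8.62 and 4.39 against 79.7 and 169 CPM (-4.15 ± 0.37, adjusted p = 2.18e-05), and CD2- γδ T cells 19.6 and 18.7 against 173 and 195 CPM (-3.24 ± 0.37, adjusted p = 0.000153). In near-empty ileal barcodes S1PR1 was 10.1 to 35.7 CPM. The ileal level of CD2+ γδ T cells was below this range, and those of CD8B and CD2- γδ T cells were within it. The sizes of these fold changes are therefore not well determined. Whether the classes differed from each other was not tested.

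S1PR5 gave 1 UMI in ileal CD4, 2 in CD8B, 3 in CD2+ γδ and 0 in CD2- γδ T cells. Blood gave 43, 319, 130 and 29 UMIs in the same order, ratios of 40.7 (95% counting interval 6.93 to 1645), 241 (66.0 to 1995) and 194 (64.9 to 953). In CD2- γδ T cells the level was at least 14.2-fold higher in blood, if 3 UMIs are taken as the limit for the summed ileal cells. S1PR5 was called lower in all 4 classes in edgeR, with adjusted p-values of 0.0375, 0.000480, 0.000671 and 0.0259. With so few ileal UMIs it can have passed the filter on low counts only through blood. The direction of these calls was therefore fixed in advance. The CD4 call was lost without the library labelled whole ileum pig 1 (adjusted p = 0.0609) or either PP library (adjusted p = 0.0844 and 0.0549), and the CD2- γδ call without the non-PP library or PBMC of pig 1 (adjusted p = 0.0528 and 0.0814). Over all 17 alternatives the CD4 call was lost in 6, with an adjusted p of up to 0.114, and the CD2- γδ call in 3.

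CCR7 was called lower in CD2+ γδ T cells alone (10.7 and 12.3 CPM in ileum, 21.5 and 137 in blood, -2.68 ± 0.62, adjusted p = 0.0134), and that call rested on PBMC of pig 2, without which it was -0.89 (adjusted p = 0.201). Without the non-PP library of pig 2 it was -2.08 (adjusted p = 0.0952). In CD4 T cells it was 144 and 139 CPM against 232 and 285 (-0.91 ± 0.54, adjusted p = 0.339), in CD8B T cells 16.2 and 24.3 against 75.9 and 54.7 (-1.71 ± 0.57, adjusted p = 0.0740), and in CD2- γδ T cells 39.8 and 73.0 against 51.7 and 74.1 (-0.15 ± 0.60, adjusted p = 0.917). With pig as a replicate block, the CD8B difference of -1.74 passed (adjusted p = 0.0127), and it also did without PP of pig 2 (-2.27, adjusted p = 0.0240), PBMC of pig 1 (-1.47, adjusted p = 0.0256) or PBMC of pig 2 (-1.95, adjusted p = 0.00926).

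LEF1 was lower in ileal CD8B (-1.85 ± 0.47, adjusted p = 0.0247), CD2+ γδ (-3.24 ± 0.51, adjusted p = 0.00148) and CD2- γδ T cells (-1.71 ± 0.50, adjusted p = 0.0426). In CD4 T cells its level of 65.5 and 66.5 CPM against 135 and 142 CPM did not pass (-1.11 ± 0.46, adjusted p = 0.164). The CD8B call was lost without either non-PP library (-1.36, adjusted p = 0.0710, and -1.42, adjusted p = 0.143). The CD2- γδ call was lost in 9 of 17 alternatives, among them that without the library labelled whole ileum pig 1 (-1.67, adjusted p = 0.0817). It was also lost without PP of pig 1 (-1.85, adjusted p = 0.0577), non-PP of pig 1 (-1.36, adjusted p = 0.0945) or pig 2 (-1.46, adjusted p = 0.143) and PBMC of pig 2 (-1.32, adjusted p = 0.107).

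TCF7 was called in none of the classes. In CD8B T cells it was 132 and 154 CPM in ileum and 92.3 and 69.2 CPM in blood (0.81 ± 0.44, adjusted p = 0.287; 1.02 and called without PBMC of pig 1, adjusted p = 0.0219), and in CD4 T cells 204 and 162 against 212 and 238 CPM (-0.34 ± 0.45, adjusted p = 0.715). In CD2+ γδ T cells the blood values of the pigs, 79.7 and 325 CPM, lay on either side of the ileal 184 and 197 CPM (-0.02 ± 0.44, adjusted p = 0.985).

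Counted together, 2 of the 6 genes were called lower in CD4, 4 in CD8B, 5 in CD2+ γδ and 4 in CD2- γδ T cells, where 3.62%, 5.34%, 6.7% and 5.53% of the 8332 genes were called lower. With pig as a replicate block, 1240 genes were called in either direction in place of 815 in CD4, 1775 in place of 959 in CD8B and 1974 in place of 1170 in CD2+ γδ T cells.

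**Figure D2:**
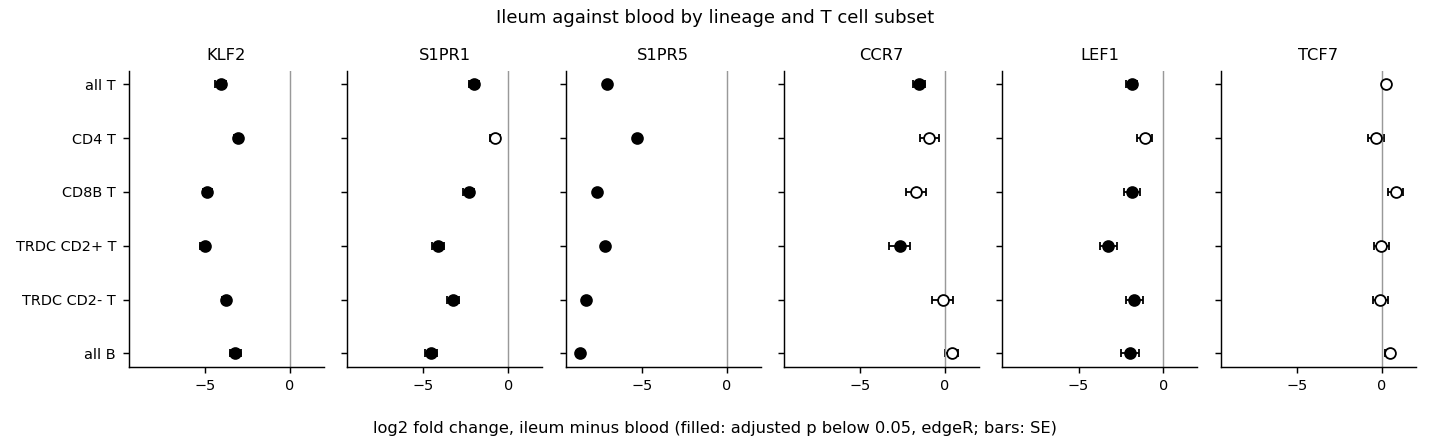
Log2 fold change of each gene, ileum minus blood, in all T cells, in 4 T cell classes and in all B cells. Filled points had an adjusted p below 0.05 in edgeR, and bars are standard errors (none are drawn for S1PR5, which had 0 to 19 UMIs in these ileal T cell sums). KLF2 lay between -3.04 and -5.01 in the T cell classes, and TCF7 between -0.34 in CD4 and 0.81 in CD8B T cells, without a call. S1PR1 was -0.79 in CD4 and -4.15 in CD2+ γδ T cells, whose ileal level was below that of near-empty barcodes.

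Within the ileum, T cells of PP tissue held more KLF2, S1PR1, CCR7 and LEF1 than T cells of non-PP tissue. These 4 of the 6 genes were called higher, where 1.04% of 11232 genes were. CCR7 had the largest ratio, 80.7 ± 6.63 CPM (SD, n = 2) in PP and 7.72 ± 4.81 in non-PP, 10.5 times (log2 fold change 3.49 ± 0.46 SE, adjusted p = 0.00213). Both non-PP levels were below the 20.5 and 25.4 CPM of CCR7 in barcodes of at most 50 UMIs, so that the size of this ratio is not well determined. In PP such barcodes held 76.2 and 59.5 CPM of CCR7, beside the mean of 80.7 CPM in T cells. The background of CCR7 was thus also higher in PP, and its part in the call was not tested. KLF2 was also higher (2.33 ± 0.39, adjusted p = 0.0112), with a non-PP level no higher than in cells with epithelial genes, so that no ratio is given. In PP barcodes of at most 50 UMIs it was 96.9 and 61.0 CPM, above its mean of 44.3 CPM in PP T cells. In such non-PP barcodes it was 50.4 and 42.3 CPM. S1PR1 was 4.67 times higher (2.29 ± 0.31, adjusted p = 0.00304) and LEF1 4.63 times (2.29 ± 0.36, adjusted p = 0.00879). Their non-PP means were 11.7 CPM for S1PR1 and 7.62 CPM for LEF1. In non-PP barcodes of at most 50 UMIs, S1PR1 was 23.6 and 10.1 CPM and LEF1 4.72 and 11.8 CPM. The sizes of the S1PR1 and LEF1 ratios are therefore not well determined either. TCF7, at 203 ± 13.0 against 127 ± 20.2 CPM, did not pass (0.74 ± 0.24, adjusted p = 0.206), and S1PR5 gave 2 to 5 UMIs in each of these libraries.

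Whole ileum, which holds both kinds of tissue, was near PP for these genes, with 38.0 to 39.9 CPM of KLF2 and 61.6 to 69.1 CPM of CCR7. With pig as a replicate block the same 4 members passed, and 206 genes were called in place of 131. The calls rested on few libraries. Without the non-PP library of pig 1 none of the 4 passed, with differences of 2.17 for KLF2 (adjusted p = 0.122), 2.17 for S1PR1 (adjusted p = 0.0850), 2.95 for CCR7 (adjusted p = 0.0513) and 1.94 for LEF1 (adjusted p = 0.102). The KLF2 call was also lost without the PP library of pig 1 (2.24, adjusted p = 0.0597) or the non-PP library of pig 2 (2.45, adjusted p = 0.0699), and the LEF1 call without the PP library of pig 2 (2.12, adjusted p = 0.0563).

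The make-up of the T cells differed between the dissections as well. CD4 T cells were 11.3% and 8.89% of the T cells in PP and 1.36% and 3.33% in non-PP, whereas CD2+ γδ T cells were 17.3% and 18.3% in PP and 27.4% and 29.5% in non-PP. Markers of other cells moved too: the 7 epithelial genes summed to 216 and 150 CPM in T cells of PP and to 826 and 345 CPM in those of non-PP, and the 5 plasma cell genes to 1670 and 882 CPM and to 208 and 437 CPM. None of these 12 genes was at 0 in any ileal T cell sum.

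In an alternative chosen after seeing the data, PP and non-PP were compared inside each T cell class, and none of the 6 genes passed in any class. In CD8B T cells the differences were 2.22 ± 0.42 for KLF2, 2.71 ± 0.53 for S1PR1 and 4.71 ± 0.95 for CCR7, each with an adjusted p of 0.106. CCR7 of CD8B T cells was 23.9 and 64.0 CPM in PP and 1.20 and 2.22 CPM in non-PP. In CD4 T cells they were 0.95 ± 0.47 for KLF2, 0.70 ± 0.49 for S1PR1 and 1.84 ± 0.81 for CCR7, and non-PP tissue gave only 46 and 86 of these cells. In that fit of 7902 genes, 64 genes (0.81%) were called in CD4 T cells, 1 (0.0127%) in CD8B and 1 in CD2+ γδ T cells, and none in CD2- γδ T cells, where 736 genes had an unadjusted p under 0.05 in edgeR.

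**Figure D3:**
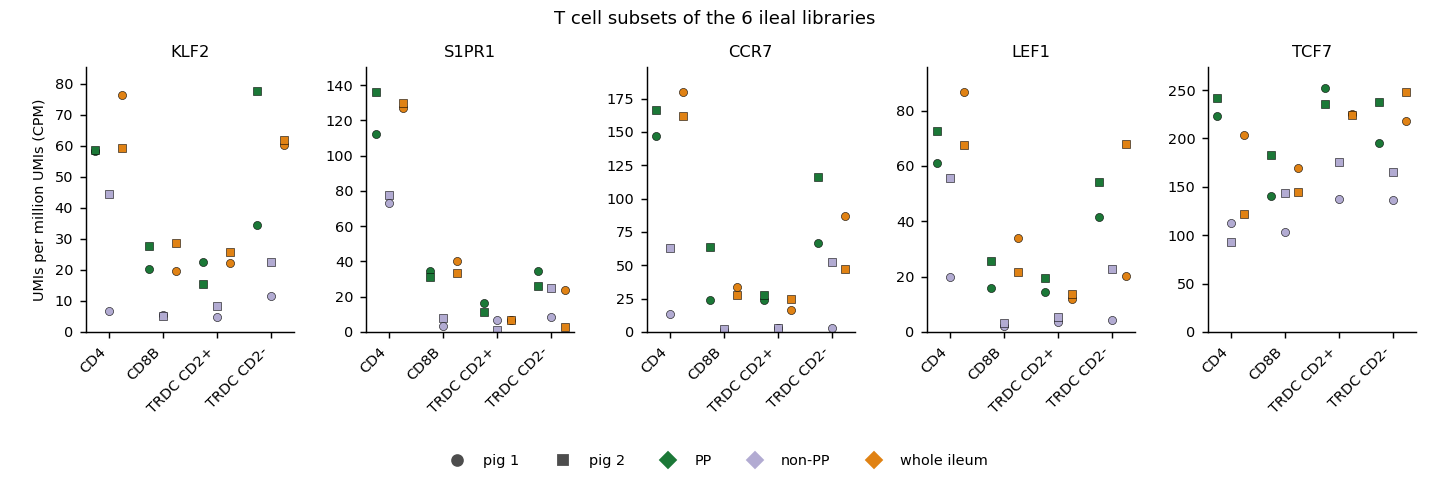
Level of 5 genes in 4 T cell classes of the 6 ileal libraries, in CPM on linear axes from 0. Circles are pig 1 and squares pig 2, with PP, non-PP and whole ileum in separate colours. S1PR1 stood at 73.0 to 136 CPM in CD4 T cells and at 1.15 to 16.1 CPM in CD2+ γδ T cells, and CCR7 of CD8B T cells was 1.20 and 2.22 CPM in non-PP.

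B cells were not compared well between PP and non-PP, since the latter gave so few. None of the 6 genes was called there, and 0.285% of 11232 genes were. The levels of the members in the 93 non-PP B cells lay between 0 CPM and the 96.3 CPM of CCR7 in pig 1. The 5 plasma cell genes summed to 30994 and 34672 CPM in B cells of non-PP and to 5759 and 4942 CPM in those of PP, so that the cells taken by the CD79B gate differed between the dissections.

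Most ileal B cells carried transcripts of germinal centre or dividing cells, and these cells held little KLF2, S1PR1 and CCR7. B cells were divided by UMIs of 9 genes of germinal centre or dividing cells (among them BCL6, RGS13, TOP2A, PCLAF, BIRC5, CDK1, TYMS and UBE2C). At least 2 such UMIs were found in 10542 of 14661 ileal B cells (71.9%) and in 418 of 2875 blood B cells (14.5%), and no such UMI in 2264 ileal (15.4%) and 1933 blood B cells (67.2%). The 1855 ileal and 524 blood B cells with 1 UMI lay between the classes and entered neither.

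Between these ileal classes, 4 of the 5 genes tested were lower in the cells at or above the gate, where 14.4% of 10517 genes were. KLF2 was 28.5 and 16.7 CPM at or above the gate and 472 and 255 CPM without gate UMIs (log2 fold change -4.16 ± 0.38 SE, adjusted p = 0.00218). CCR7 was 32.9 and 19.3 against 383 and 293 CPM (-3.86 ± 0.29, adjusted p = 0.00131), and S1PR1 4.49 and 2.68 against 26.4 and 13.6 CPM (-2.64 ± 0.38, adjusted p = 0.00747). TCF7 was 18.8 and 20.6 against 54.2 and 53.1 CPM (-1.61 ± 0.13, adjusted p = 0.00155). In near-empty ileal barcodes KLF2 was 37.1 to 96.9, CCR7 20.5 to 76.2, S1PR1 10.1 to 35.7 and TCF7 49.3 to 76.1 CPM. No level at or above the gate exceeded these ranges, nor did S1PR1 and TCF7 without gate UMIs. The sizes of these fold changes are therefore not well determined. LEF1 did not pass (adjusted p = 0.189), and S1PR5 was not tested for lack of UMIs. The median depth was 3466 UMIs per cell at or above the gate and 2164 without gate UMIs.

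The comparison of ileum with blood was repeated on B cells without gate UMIs, an alternative chosen after seeing the data, and CCR7 and TCF7 then passed in the other direction from KLF2. CCR7 was 383 and 293 CPM in ileum against 44.3 and 66.6 CPM in blood, 6.10 times higher (2.70 ± 0.34, adjusted p = 0.00261). TCF7 was 3.32 times higher (1.83 ± 0.26, adjusted p = 0.00409), and 12% of 10874 genes were called higher. The TCF7 levels were not above those in near-empty barcodes, 49.3 to 76.1 CPM in ileum and 41.6 and 80.1 CPM in blood. CCR7 was 46.9 and 65.7 CPM in near-empty blood barcodes, close to its level in these blood B cells. The sizes of both ratios are therefore not well determined. KLF2 remained lower, 472 and 255 against 708 and 665 CPM (-0.83 ± 0.23, adjusted p = 0.0394), as did S1PR1 (-2.52 ± 0.27, adjusted p = 0.00147) and S1PR5, with 1 UMI in ileum and 292 in blood (ratio 243, counting interval 43.3 to 9635, adjusted p = 0.00259). In this fit 8.09% of the genes were called lower. S1PR5 can again have entered it only through blood. The ileal S1PR1 level of these cells was within the range of near-empty barcodes. The LEF1 difference was -0.56 (adjusted p = 0.484).

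In blood, the same division moved these genes less. The median depth there was 7416 UMIs per cell at or above the gate and 3346 without gate UMIs. Whether the blood cells at or above the gate were germinal centre or dividing cells was not tested. KLF2 was 509 and 498 CPM at or above the gate and 708 and 665 CPM without gate UMIs, and S1PR1 was 143 and 113 against 131 and 113 CPM, a difference that was not tested.

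**Figure D4:**
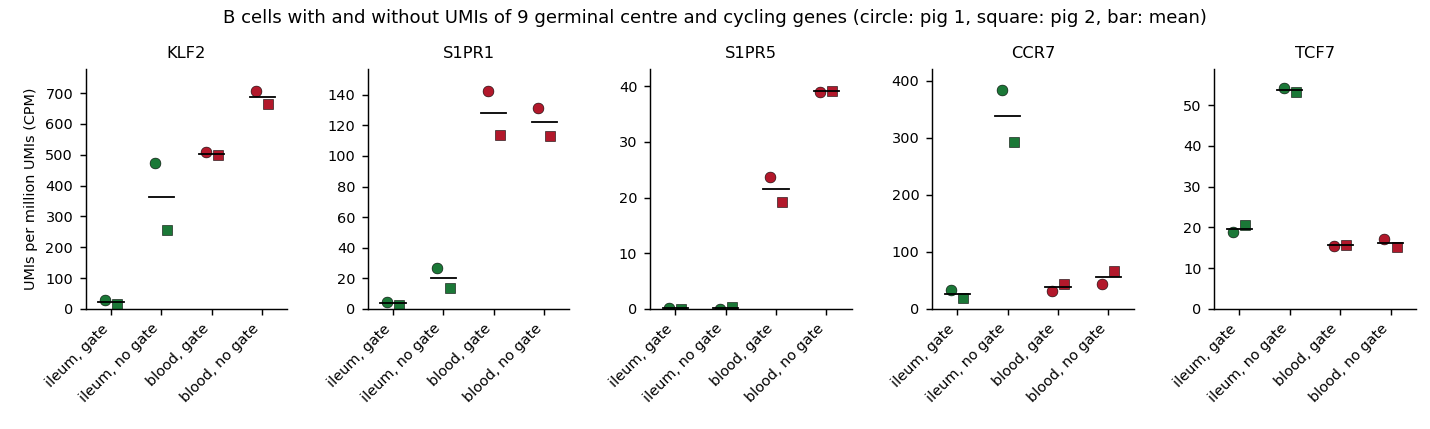
Level of 5 genes in B cells with at least 2 UMIs of 9 germinal centre and cycling genes (gate) and with none (no gate), in ileum and in blood, in CPM on linear axes from 0. Circles are pig 1, squares pig 2 and bars the mean. CCR7 was 383 and 293 CPM in ileal B cells without gate UMIs and at most 66.6 CPM in the other classes, while KLF2 and S1PR1 were highest in blood.

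In T cells, the share of cells with a UMI of KLF2, S1PR1 and CCR7 was lower in every ileal library than in blood. The order of libraries was not always that of the levels: CCR7 of T cells overlapped between ileum and blood by level but not by share. Each cell was reduced to the expectation at 1250 UMIs, because blood cells were sequenced to a higher depth (median 3285 against 2556 UMIs for T cells, 3869 against 2989 for B cells). At that depth KLF2 was found in 44.6% and 44.5% of blood T cells and in 0.630% to 4.91% of ileal T cells per library. Before this reduction it was found in 76.0% of blood and 4.76% of ileal T cells. S1PR1 was found in 13.3% and 18.1% of blood and 0.920% to 5.54% of ileal T cells, CCR7 in 9.70% and 18.0% against 0.468% to 8.20%, and TCF7 in 12.3% and 20.2% against 12.5% to 23.3%.

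Free RNA can give a cell a UMI of a gene that it does not express. Ileal cells with epithelial genes (400 cells, median depth 9153 UMIs) were taken to lack these genes, an assumption that was not tested. In these cells the share at equal depth was 2.08% for KLF2, 2.25% for TCF7, 0.171% for CCR7 and 0.0382% for LEF1. At their full depth S1PR1 was found in 0 of 400 cells, which allows a share of up to 0.750% there. KLF2 of non-PP T cells, at 8.001 and 10.5 CPM, was not above the 15.3 and 12.6 CPM of these cells and cannot be told apart from free RNA by this measure. Depth differed too, with a median of 2556 UMIs in ileal T cells, so that these levels are not strictly comparable. In barcodes of at most 50 UMIs, which hold mostly free RNA, KLF2 made up 37.1 to 96.9 CPM in ileal libraries, above the T cell level in 5 of 6 of them. In blood it was 403 CPM in pig 1 and 366 CPM in pig 2 there, below the T cell level of 422 and 455 CPM in both libraries. Of the other genes in ileal T cells, S1PR5 was below the level in such barcodes in 6 of 6 libraries, CCR7 in 3, and S1PR1 and LEF1 in 1 each. In blood T cells S1PR5 was below it in 1 of 2 libraries. In B cells, S1PR5, LEF1 and TCF7 were below the level in such barcodes in all 8 libraries, S1PR1 in the 6 ileal ones and CCR7 in both blood libraries. TCF7 made up 49.3 to 76.1 CPM in these ileal barcodes and 41.6 and 80.1 CPM in those of blood, so that its B cell levels, with and without gate UMIs, were not above the range of free RNA.

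Few ileal lymphocytes held several of the 6 genes. In a seeded draw of 1250 UMIs per cell, at least 3 of them were found in 2.37% and 1.40% of T cells in PP, in 0.0590% and 0.0775% in non-PP and in 6.69% and 10.5% in blood. None of the 6 was found in 65.6% and 65.9% of T cells in PP, 85.5% and 82.8% in non-PP and 34.3% and 28.6% in blood. In B cells the share with none was 79.9% and 84.2% in PP and 34.8% and 35.4% in blood.

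Pairs among KLF2, S1PR1 and CCR7 fell into the same T cells of PP and whole ileum more often than their separate shares would give. Pairs of TCF7 with LEF1 or S1PR1 did not in every library. KLF2 and S1PR1 were drawn together in 9 to 23 T cells of each PP and whole ileum library, 3.20 to 4.68 times the product of their shares, and S1PR1 and CCR7 in 20 to 32 T cells, 3.25 to 5.51 times the product. Over all 6 ileal libraries TCF7 was at 0.673 to 2.30 times the product with CCR7, 0.758 to 2.06 times with LEF1 and 0.893 to 1.51 times with S1PR1. With KLF2 it was at 1.06 to 2.61 times, above the product in each. The 0.673 with CCR7 came from 3 cells of non-PP pig 2, and in PP and whole ileum that pair was at 1.15 to 1.49 times. In ileal B cells KLF2 and CCR7 were drawn together in 79 to 205 cells of each PP and whole ileum library, 4.25 to 7.14 times the product. In blood, where KLF2 was widespread, its pairs with S1PR1, CCR7, LEF1 and TCF7 in T cells were at 0.954 to 1.07 times the product.

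S1PR5 stood apart from the naive cell genes in blood T cells. It was drawn together with CCR7 in 5 cells of pig 1, 0.134 times the product of their shares, and in 0 cells of pig 2. With LEF1 it was drawn in 8 cells of pig 1, 0.240 times the product, and in 2 of pig 2, 0.138 times. CCR7 and LEF1 shared 91 blood T cells of pig 1, 3.62 times the product, and 130 of pig 2, 2.00 times.

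Ileal T cells with at least 3 of the genes (77 cells in pig 1 and 45 in pig 2) differed from those with none in other transcripts. They held 765 and 780 CPM of GZMB, a cytotoxic protease, against 9410 and 9163 CPM, and 414 and 480 CPM of the chemokine gene CCL5 against 21298 and 15701 CPM. CD69 was not lower in them, at 454 and 609 CPM against 237 and 247 CPM. Since cells were sorted by the measured members, these values are a description without a test.

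**Figure D5:**
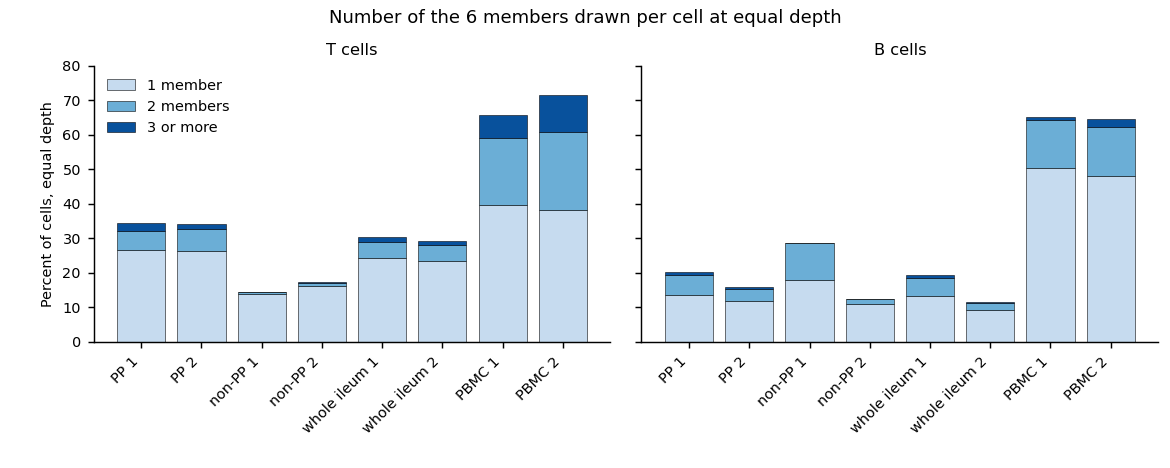
Percent of T cells (left) and B cells (right) of each library in which 1, 2 or at least 3 of the 6 genes were drawn at 1250 UMIs per cell, stacked from 0. At least 1 gene was drawn in most blood cells and in a minority of the ileal cells of every library, with the smallest T cell bars in non-PP.

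Outside the T and B cells, the genes marked different cells. S1PR5 was highest in blood cells with NK and innate lymphoid genes and without CD3E, at 246 and 170 CPM, against 3.46 and 1.98 CPM in the ileal cells of that class (16 UMIs, ratio of the sums 77.0, counting interval 47.2 to 135). KLF2 followed the lymphocytes there, at 521 and 478 CPM in blood and 22.0 and 23.2 CPM in ileum. In contrast TCF7 of this class was 36.0 and 33.9 CPM in blood and 81.6 and 71.9 CPM in ileum.

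KLF2 was also found in ileal cells with endothelial and stromal genes, at 332 and 430 CPM over 60 cells, and S1PR1 stood at 142 and 39.1 CPM in them. CCR7 was 52.6 and 131 CPM in ileal cells with myeloid genes and 6.13 and 4.14 CPM in those of blood. The 233 ileal cells of that class may differ in type from the 1289 of blood, and no test was made across classes.

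Further genes of these pathways were taken from 5 lists, chosen with earlier results of these data known. The lists also hold the 6 genes described above, which enter the counts and medians: S1PR1 and S1PR5 in the S1P axis, CCR7 in lymph node entry, KLF2 among the KLF and FOXO factors, and LEF1 and TCF7 among the naive genes. The list counts are thus not separate from the results above. They stand beside the shares of all 11698 genes given above, 14.4% higher and 10.3% lower in T cells and 18.7% higher and 19.6% lower in B cells. Of 14 tested genes of the S1P axis, 5 were called higher and 3 lower in ileal T cells, and 2 higher and 5 lower in ileal B cells. S1PR2, a receptor that holds germinal centre B cells in their follicle, was 87.0 and 106 CPM in ileal and 0.152 and 0.446 CPM in blood B cells (8.12 ± 0.39, adjusted p = 7.18e-05). In T cells, the highest changes of the axis were those of the S1P transporter gene SPNS2 (4.36), the phosphatase gene PLPP3 (3.41) and the kinase gene SPHK1 (3.34), all at 2.97 to 6.14 CPM in ileum, and GNAI2 was lower (-0.71). In B cells GNA13, which couples to S1PR2, was higher (1.23) and PLPP3, GNAI2 and SGPP1 were lower (-2.99, -0.98 and -0.70).

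Of 13 tested genes of lymph node entry and migration, 3 were called higher and 8 lower in T cells (10.3% of all genes were lower), and 1 higher and 7 lower in B cells (19.6% lower). The integrin gene ITGB2 was lower in both (-3.02 and -1.48), as was ITGA4 (-1.24 and -1.61), and RIPOR2 was lower in T cells (-1.65). CXCR4, the receptor for CXCL12, was higher in both, by 4.08 and 4.03, and GPR183 and CXCR5 were higher in T cells (1.79 and 1.16), while CXCR5 was lower in B cells (-0.72).

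Among 11 KLF and FOXO factors, 4 were called higher and 2 lower in T cells (all genes 14.4% and 10.3%), and 3 higher and 5 lower in B cells (all genes 18.7% and 19.6%). KLF3 was lower in both with KLF2 (-2.70 and -4.40). KLF4 was higher in both (4.67 and 3.00), at 24.8 and 14.4 CPM in ileal T cells, as were KLF7 in T cells (1.02), KLF6 in T cells at 1.52 and 1.43 CPM against 0 and 0.163 CPM, and KLF10 and FOXO1 in B cells (2.00 and 1.13). FOXO3 and KLF7 were lower in B cells (-2.11 and -1.75).

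Of 14 tested naive and quiescence genes, 3 were called higher and 3 lower in T cells (all genes 14.4% and 10.3%), and 5 higher and 3 lower in B cells (all genes 18.7% and 19.6%). TXNIP was lower in both lineages (-1.62 and -2.68) and ID3 in T cells (-1.48). The CD27 call in B cells rested on 0.152 and 0.149 CPM in blood and 0 in ileum. BTG2 was higher in both (1.30 and 1.37), TOB1 and BTG1 in T cells (1.52 and 1.31) and IL7R and BACH2 in B cells (2.21 and 1.74).

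Of 14 tested retention and residency genes, 10 were called higher and 1 lower in T cells (all genes 14.4% and 10.3%), and 9 higher and 3 lower in B cells (all genes 18.7% and 19.6%). The signalling regulator RGS1 was 1076 and 997 CPM in ileal and 38.6 and 31.2 CPM in blood T cells (4.85 ± 0.29), and 6.92 higher on the log2 scale in B cells. NR4A1 was higher in both (4.79 and 5.09), DUSP4 in T cells (4.14) and RGS2 in B cells (3.49). Only ileal cells were dissociated from tissue, and the part of this handling in the differences was not tested. ZNF683 was lower in both (-2.71 and -5.54), and GPR55 and CCR9 were lower in B cells (-3.53 and -1.90). The median log2 fold change of the tested genes was 2.84 for this list, 0.31 for the S1P axis, -0.90 for lymph node entry, -0.09 for KLF and FOXO factors and 0.32 for naive and quiescence genes in T cells, against 0.01 over all 11698 genes. In B cells the medians were 0.96, -0.28, -0.56, -0.89 and 0.14 in the same order, against -0.01.

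Between PP and non-PP T cells, 4 of the 13 lymph node entry genes were called higher (CCR7, CXCR5, ITGB2 and CXCR4) and none lower, where 1.04% of all genes were higher and 0.125% lower. None of the 14 retention genes was called in edgeR, which is near those shares. CXCR5, the receptor that leads lymphocytes to B cell follicles, had a difference of 3.49 ± 0.42 (adjusted p = 0.00142), and CD28 of the naive and quiescence list one of 1.82 ± 0.36 (adjusted p = 0.0340).

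Over the 16 sums of a library and lineage, genes most like each member in log2 CPM were taken among 10236 genes with a symbol. S1PR1 was closest to GPR174 (Pearson r = 0.96) and ATF7IP (0.95), LEF1 to DAPL1 (0.98), SH2D1A (0.98) and CD44 (0.97), and TCF7 to CD5 (0.99), KLK7 (0.98) and LAT (0.97). KLF2 was closest to ITGB2 (0.94), RASA3 (0.93) and THEMIS2 (0.93), S1PR5 to TBKBP1 (0.98), PSTPIP2 (0.98) and CCL14 (0.97), and CCR7 to PDK1 (0.86), ZFR (0.81) and LTB (0.76). Among the members themselves, r was 0.86 for LEF1 and TCF7 and 0.82 for KLF2 and S1PR5, and -0.39 for KLF2 and TCF7. These sums share pigs and libraries and differ in lineage, so that genes of 1 lineage correlate with each other, and r is given as a description.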

How the data were processed

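Single-cell RNA was counted in ileum and blood of 2 pigs. The authors aligned the reads to Sscrofa11.1 and counted UMIs with Cell Ranger, and the deposited matrices hold raw counts per gene and barcode, 1 matrix for each of 8 libraries, each pooled from 4 runs. The deposited gene and barcode lists (unit other) name the rows and columns of each matrix. Barcodes and ambient RNA were taken as deposited, and the filters, gates and sums described above were computed from the counts.

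UMIs were summed per pig, tissue and cell class (per library for PP against non-PP), and sums of under 20 cells were left out. They were tested in 1 fit per set of classes, without a term for the pig, by the quasi-likelihood test of edgeR 4.0.16 (R 4.3.3, TMM scaling, filter on low counts, Benjamini-Hochberg adjustment over all genes tested, threshold 0.05, two-sided). Standard errors were the log2 fold change divided by the square root of F. Ratios of few UMIs were given exact 95% intervals, which, like floors of 3 counts, cover counting error only. Doublets were scored with scanpy 1.11.5 (expected rate 0.07), 2.72% to 3.76% of the cells per library had a score above 0.25, and they were removed in an alternative only. Python 3.11.15 was used. On simulated counts for T cells in ileum against blood (11379 genes), 98% of the genes changed by 2 and 53% of those changed by 1 on the log2 scale were recovered. In the fit of T cell classes (CD4, 7974 genes) these shares were 85% and 28%. For PP against non-PP in T cells they were 98% and 49%, and for ileal B cells by gate 99% and 55%. Genes of low mean level were not changed, so that these shares do not cover members near the floor.

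The members and gene lists were chosen with earlier results of these data known. Genes named from the 5 lists were up to 3 with the largest changes past the threshold in each direction, and ITGA4 and CXCR5 in the second lineage, CCR7, CXCR4 and ITGB2 between PP and non-PP, and the transcripts of cells grouped by members drawn were named after their values were seen. Ileum and blood came from the same pigs, and the pig 1 minus pig 2 deviations of the groups correlated across 11726 genes with r from 0.056 (B cells of ileum and T cells of blood) to 0.49 (T and B cells of blood). Each fit held several sums of the same 2 pigs without a term for the pig, and the spread was shared across genes. The p-values therefore do not measure the spread over further animals. The ileal sums labelled pig 1 also held the whole ileum library whose Y-linked UMIs went against its label. Alternatives were DESeq2 1.42.0, no filter on low counts, pig as a replicate block, other gates, doublet removal, at least 2000 UMIs per cell, subtraction of 10% ambient profile and leaving out each library. Some genes of the gate, the lists and the likeness ranking are not reported here, although counts over these sets include them.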

Additional observations from a re-analysis of the deposited data

Results flagged for a closer look

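The difference between ileum and blood was not the same in T and B cells for 2 of the 6 genes, by a test of the difference itself (interaction contrast in edgeR). For S1PR1 it was smaller in T cells by 2.53 on the log2 scale (adjusted p = 0.00981). That size is not well determined, as the ileal B cell level of S1PR1 was below that of near-empty barcodes in 6 of 6 libraries. For CCR7, which was lower in ileal T cells and did not pass the test in B cells, the contrast was -1.92 (adjusted p = 0.0440). The B cell side of both contrasts held mostly cells with germinal centre or cycling genes in ileum (71.9%) and few in blood (14.5%). On B cells without gate UMIs, chosen after seeing the data, ileum minus blood was -2.52 ± 0.27 (SE) for S1PR1 and 2.70 ± 0.34 for CCR7. In T cells these differences were -2.01 ± 0.30 and -1.52 ± 0.37. The contrast was not repeated on B cells without gate UMIs, so that the part of the gated cells was not tested.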

How the results depend on the processing

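Among the 455 values under other settings, 427 kept their direction and their side of the threshold, 14 were no longer past it, 9 passed it and 5 turned. Without 1 library these numbers were 319, 30, 6 and 7 of 362, and a group left with 1 sum was assumed to vary like the others. In the 26 values of alternatives chosen after seeing the data they were 7, 17 and 2, with none turned. The LEF1 difference in B cells was 1.73 with an ambient profile subtracted, which in blood exceeded the B cell level itself, TCF7 in CD2+ γδ T cells 0.039 with no filter, 0.080 with pig as a replicate block and 0.058 with at least 2000 UMIs per cell, and CCR7 in CD2- γδ T cells 0.092 with cells of both markers counted. Without 1 library each, TCF7 ranged from -0.070 to 0.71 in T cells and from -0.73 to 1.28 in CD2+ γδ T cells, and CCR7 from -0.47 to 0.28 in CD2- γδ T cells. The causes were not tested.

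Counts of genes called moved as follows. PP against non-PP in T cells gave 131 genes, and 307 with DESeq2, 340 with no filter, 206 with pig as a replicate block, 959 with cells of both markers, 42 with the ambient profile subtracted and 39 to 90 without 1 library. Within classes, chosen after seeing the data, it gave 64 in CD4, 1 in CD8B, 1 in CD2+ γδ and 0 in CD2- γδ T cells by edgeR (736 at an unadjusted p under 0.05). In B cells it gave 32, and 138 with DESeq2, 83 with no filter, 98 with cells of both markers, 6 to 25 without 1 library and 0 with a stricter gate by edgeR (901 at an unadjusted p under 0.05). The contrast of T with B cells gave 2083, and 944 with cells of both markers, and B cells of ileum against blood 4482, and 2189 without gate UMIs. In CD4 T cells 815 became 1240 with the block and 508 to 832 without 1 library (508 without PBMC of pig 2), in CD8B T cells 959 became 1562 with no filter and 1775 with the block, and in CD2+ γδ T cells 1170 became 1787 and 1974. In CD2- γδ T cells 1038 became 628 to 1004 (628 without PBMC of pig 2), and in ileal B cells by gate 3168 became 1976 to 3399 (1976 without whole ileum of pig 1). The block changed no other call of a member than CCR7 in CD8B T cells. S1PR5 in ileum rested on 19 UMIs in T cells and 5 in B cells, and the B cell sums of non-PP on 28 and 65 cells.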
